A study of Mus musculus with 10 samples.

Results

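Zic1, Zic4, Zic2 and Zic5 encode zinc finger transcription factors and lie as divergent pairs in the mouse genome, Zic1 with Zic4 on chromosome 9 and Zic2 with Zic5 on chromosome 14. These 4 genes were taken by name and located among the 22350 protein-coding genes that the GENCODE annotation of mm9 places on the 20 chromosomes with peaks. Polycomb-group (PcG) peaks at the genes were read from ChIP-seq of J1 ESCs, a mouse embryonic stem cell line, and of NSCs, neural stem cells differentiated from J1 ESCs in culture. ESCs grew on inactivated embryonic fibroblast feeders in serum and leukemia inhibitory factor, and the feeders were depleted before ChIP, while NSCs grew on gelatin with EGF and FGF. Both cell types were under standard growth conditions with no further treatment. Ring1b, Cbx2, Ezh2 and H3K27me3 were profiled in ESCs, and Ring1b and H3K27me3 in NSCs. Each of these 6 groups holds 1 library, so no difference has a replicate check and no test was made. The lists carry peak positions and nothing on height, score or depth. A place without a peak therefore means that no window there passed the authors' threshold, and not that the protein or the mark is absent.

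Zic proteins share a run of C2H2 zinc fingers with the Gli and Glis families. They act in the dorsal neural tube, the neural crest and the developing cerebellum, where they are known for roles in neural tube closure and in keeping progenitors from differentiating. Loss of Zic1 and Zic4 has been linked to Dandy-Walker malformation of the cerebellum, and ZIC2 mutations cause holoprosencephaly. Ring1b is the ubiquitin ligase of PRC1, and Cbx2 is a PRC1 subunit that binds H3K27me3. Ezh2 is the methyltransferase of PRC2, which deposits H3K27me3. In ESCs these complexes occupy CpG-rich start sites of many developmental genes that are not yet expressed.

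Zic1 (ENSMUSG00000032368.8) lies on the minus strand at chr9:91252896-91260648 and Zic4 (ENSMUSG00000036972.8) on the plus strand at chr9:91257251-91284186. The annotated start site of Zic4, the outermost 5′ end in its annotation, falls inside an intron of Zic1, so the start sites are 3397 bp apart and the gene bodies share 3398 bp. Zic2 (ENSMUSG00000061524.7) lies on the plus strand at chr14:122874604-122879074 and Zic5 (ENSMUSG00000041703.7) on the minus strand at chr14:122856017-122864899. Their start sites are 9705 bp apart and the bodies do not overlap. The window of a gene is its body with 10 kb on either side, and the windows of a pair overlap, so the genes of a pair are not independent observations. Joined, the windows of Zic1 and Zic4 span 51.3 kb and those of Zic2 and Zic5 span 43.1 kb. Other annotated genes reach into the Zic2 and Zic5 window alone, namely the protein-coding gene Gm5089 and the lincRNA 2610035F20Rik.

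The 250 bases upstream of each start site are shown because the genes differed in which lists covered them and in how many CpGs they held. They were read from the mm9 genome, 5′ to 3′ along the strand of the gene, with every CpG in capitals.
Zic1: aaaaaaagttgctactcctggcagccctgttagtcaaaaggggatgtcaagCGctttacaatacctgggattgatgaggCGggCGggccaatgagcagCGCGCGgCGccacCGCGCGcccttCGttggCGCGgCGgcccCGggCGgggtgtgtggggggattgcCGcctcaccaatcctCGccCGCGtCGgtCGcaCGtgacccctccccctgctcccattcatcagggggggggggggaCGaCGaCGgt
Zic4: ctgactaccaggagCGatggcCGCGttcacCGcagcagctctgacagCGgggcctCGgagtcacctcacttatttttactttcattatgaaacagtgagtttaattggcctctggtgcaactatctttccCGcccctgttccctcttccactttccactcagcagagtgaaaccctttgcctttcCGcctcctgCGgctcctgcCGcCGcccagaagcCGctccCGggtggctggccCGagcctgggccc
Zic2: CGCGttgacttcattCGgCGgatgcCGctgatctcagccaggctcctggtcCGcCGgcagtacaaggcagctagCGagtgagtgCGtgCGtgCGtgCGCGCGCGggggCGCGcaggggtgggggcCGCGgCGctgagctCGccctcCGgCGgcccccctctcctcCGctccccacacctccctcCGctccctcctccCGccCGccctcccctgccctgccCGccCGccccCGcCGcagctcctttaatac
Zic5: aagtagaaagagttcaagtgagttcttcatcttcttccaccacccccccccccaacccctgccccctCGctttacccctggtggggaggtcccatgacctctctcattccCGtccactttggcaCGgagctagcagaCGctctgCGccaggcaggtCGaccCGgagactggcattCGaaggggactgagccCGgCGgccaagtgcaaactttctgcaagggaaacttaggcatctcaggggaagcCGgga
Zic4 inner start: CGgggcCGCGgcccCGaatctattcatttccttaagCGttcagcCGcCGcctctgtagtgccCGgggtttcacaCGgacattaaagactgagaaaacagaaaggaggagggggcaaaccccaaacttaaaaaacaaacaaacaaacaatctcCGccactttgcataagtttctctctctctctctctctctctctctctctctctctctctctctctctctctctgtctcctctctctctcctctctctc

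The stretch upstream of Zic1, chr9:91260649-91260898, held 26 CpGs at a GC content of 66.8%. That of Zic4, chr9:91257001-91257250, held 14 CpGs at 59.6%. That of Zic2, chr14:122874354-122874603, held 31 CpGs at 74.8%, more CpGs than any of the others. That of Zic5, chr14:122864900-122865149, held 11 CpGs at 60.0%. The last stretch, chr9:91272785-91273034, lies upstream of a further annotated start of Zic4 inside its own body and held 10 CpGs at 50.4%. This inner start was chosen as the first Zic4 start inside an ESC Ring1b peak other than the one over its outermost start. Over all 22350 genes the median was 8 CpGs and a GC content of 54.0%, and over the 1571 genes with a start site in an ESC Ring1b peak it was 18 CpGs and 64.4%. Zic1 and Zic2 were thus above the Ring1b-bound median and Zic4 and Zic5 below it in CpG number. The motif CAGCAGG, known from Zic binding, was looked for on both strands and was found in none of the 5 stretches. It was present in 8.02% of such stretches over all genes, and its absence here says only that these letters are not in these windows.

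All 4 start sites lay inside ESC Ring1b peaks, whereas 7.03% of protein-coding genes had theirs inside such a peak. The ESC Cbx2 list held the start sites of Zic1 and Zic4, 2 of 4, against 1.15% of genes. ESC Ezh2 peaks likewise held those of Zic1 and Zic4, 2 of 4, against 2.56%. Where a peak within 1 kb was accepted, the Cbx2 and Ezh2 counts were each 3 of 4. Cbx2 also had 3 of 4 where the start of any transcript was accepted. The ESC H3K27me3 list held that of Zic4, 1 of 4, against 4.31%, and the count was 3 of 4 where a peak within 1 kb or the start of any transcript was accepted. In NSCs, Ring1b peaks held the start sites of Zic1, Zic4 and Zic2, 3 of 4, against 1.74% of genes, and H3K27me3 peaks that of Zic4, 1 of 4, against 1.77%. The last count was 2 of 4 under either of the same looser definitions. Zic4 was the only one of the 4 genes with its start site inside peaks of all 4 ESC lists, which 0.752% of genes had, and inside peaks of all 6 lists, which 0.309% had. These calls rest on the outermost start of Zic4. At its RefSeq start, which lies farther inside the gene, no gene of the 4 was in all 4 ESC lists, and the counts were 1 of 4 for Cbx2, 1 of 4 for Ezh2 and 2 of 4 for NSC Ring1b. Zic5 was at the other end, with its start site in the ESC Ring1b list and in no other.

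Peaks were also counted anywhere in the window, which contains the start site. All 4 windows had at least 1 ESC Ring1b peak (11.5% of all windows), at least 1 ESC Ezh2 peak (5.28%), at least 1 ESC H3K27me3 peak (9.97%) and at least 1 NSC Ring1b peak (4.64%). The Zic5 window was counted for Ezh2 through 99 bp and for NSC Ring1b through 299 bp of peaks at Zic2. Those peaks were thus counted for both genes of the pair. For ESC H3K27me3 the Zic5 window held 1299 bp, from the peak at the start site of Gm5089 and the edge of the peak at Zic2. ESC Cbx2 peaks reached 3 windows, all but that of Zic5 (3.09%). NSC H3K27me3 peaks reached 2 windows, those of Zic1 and Zic4 (4.70%). The map of peaks along both pairs shows these positions.

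**Figure D1:**
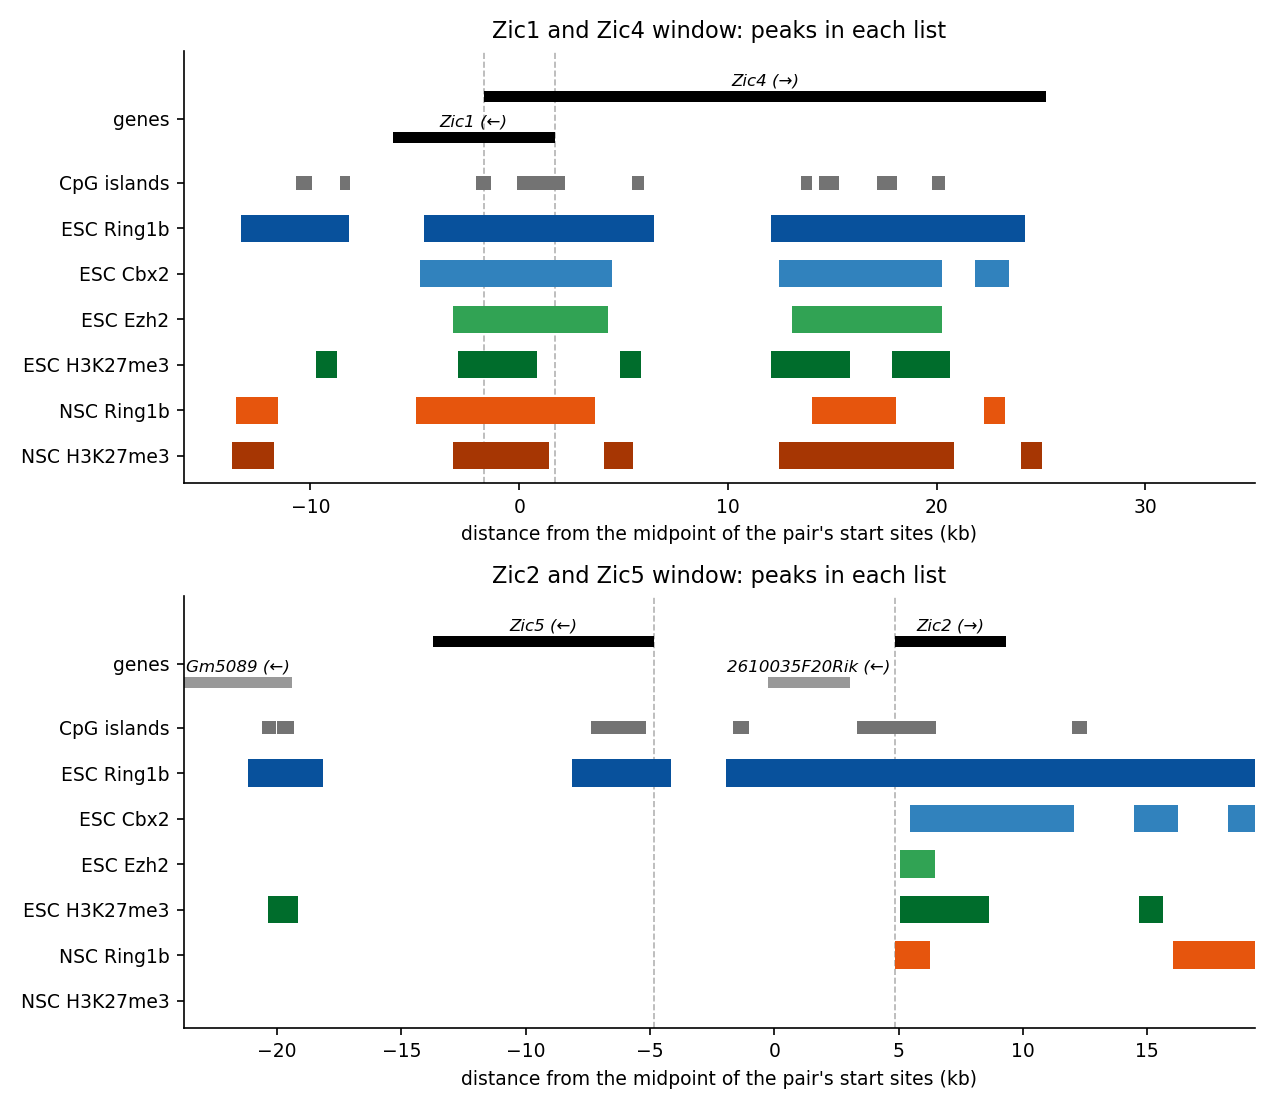
Peaks of the 6 lists (coloured bars, one row for each list), CpG islands (grey) and annotated genes (arrows give the strand) along the joined windows of Zic1 and Zic4 (top) and Zic2 and Zic5 (bottom), by distance in kb from the midpoint of the pair's start sites (dashed lines). All 6 rows have peaks in the top panel, while the bottom panel has a 23.4 kb ESC Ring1b peak, cut at the window edge, and no NSC H3K27me3 peak.

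At Zic1 and Zic4, ESC peaks of the PRC1 and PRC2 subunits lay over the start sites and inside the body of Zic4, and Ring1b had a further peak of 5200 bp beyond the 3′ end of Zic1. The ESC Ring1b peak over the start sites was 11.0 kb wide, at chr9:91254401-91265400, and held both of them. A Cbx2 peak of 9200 bp and an Ezh2 peak of 7400 bp lay over the same place and also held both start sites. Inside Zic4, beginning 13750 bp downstream of its start site, Ring1b formed a further peak of 12200 bp at chr9:91271001-91283200, its widest in the window. Cbx2 and Ezh2 peaks of 7800 and 7200 bp lay within that one. This region holds the inner start of Zic4 whose upstream bases are printed above, a start chosen for lying in an ESC Ring1b peak.

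H3K27me3 at this pair in ESCs was cut into more and narrower peaks than the subunits. There were 5 peaks, none wider than 3800 bp, and the one at chr9:91256001-91259800 held the start site of Zic4. It ended 848 bp short of the start site of Zic1. A peak of 3800 bp and another of 2800 bp lay in the body of Zic4, and the remaining 2 were 1000 bp wide, the narrowest width in the lists.

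At Zic2 and Zic5 the lists differed far more from each other. A Ring1b peak of 23.4 kb at chr14:122867801-122891200, rank 11 by width of the 2335 ESC Ring1b peaks, held the whole of Zic2 and the start site of the lincRNA 2610035F20Rik. Zic5 had a separate Ring1b peak of 4000 bp at chr14:122861601-122865600, which held its start site, and a peak of 3000 bp lay at the start site of Gm5089. Cbx2 covered Zic2 from 597 bp downstream of its start site, with a peak of 6600 bp. Ezh2 formed 1 peak of 1400 bp in the whole window, beginning 197 bp downstream of the start site of Zic2. H3K27me3 began at the same position, with a peak of 3600 bp. The peaks of these 3 lists nearest to the start site of Zic5 were those over Zic2, so that it lay 10302 bp from the nearest Cbx2 peak and 9902 bp from the nearest Ezh2 and H3K27me3 peaks. Gm5089 had its start site inside an ESC H3K27me3 peak of 1200 bp as well.

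Stretches under all 4 ESC lists came to 9000 bp in 3 pieces at Zic1 and Zic4 and to 1000 bp in 1 piece at Zic2 and Zic5. The longest piece, 3800 bp, held the start site of Zic4. The piece at Zic2, chr14:122875201-122876200, lay inside the gene and held no start site.

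The share of each window under peaks did not place the genes in the same order in all lists. In the ESC Ring1b list the share was 91.0% for Zic2, 58.4% for Zic1, 57.0% for Zic4 and 48.8% for Zic5. Windows at least as covered as that of Zic2 made up 0.0761% of all genes, 17 windows with Zic2 included, and 0.497% were at least as covered as that of Zic5. Part of the Zic5 share was the 23.4 kb peak over Zic2, which reaches into the Zic5 window. Another part was the 3000 bp peak at the start site of Gm5089, and 37.1% of the body of Zic5 was covered. In the Cbx2 list Zic4 had 39.6%, Zic2 38.7%, Zic1 33.1% and Zic5 0. In the Ezh2 list the shares were 31.1% for Zic4, 26.7% for Zic1, 5.72% for Zic2 and 0.343% for Zic5. In the ESC H3K27me3 list they were 26.4% for Zic4, 20.9% for Zic1, 18.8% for Zic2 and 4.50% for Zic5. Zic2 was thus the most covered of the 4 by Ring1b and close to Zic4 by Cbx2, but had a smaller Ezh2 share than Zic1 or Zic4. Windows at least as covered by Ezh2 as that of Zic2 still made up only 2.25% of all genes. The lists also differ in size, with 2.85 Mb under Ezh2 and 7.90 Mb under ESC Ring1b. In the NSC Ring1b list the shares were 38.2% for Zic1, 29.3% for Zic4, 19.1% for Zic2 and 1.04% for Zic5. In the NSC H3K27me3 list they were 32.8% for Zic4, 28.8% for Zic1 and 0 for Zic2 and Zic5. Zic5 had the smallest or an equal smallest share in every list. Its Ezh2 and NSC Ring1b shares came from peaks at Zic2 that reach into its window. Its ESC H3K27me3 share came from the peak at Gm5089 and the edge of the peak at Zic2. No base of the body of Zic5 was covered in any of these lists. With 1 library each, the order of neighbours as close as Zic1 and Zic4 in Ring1b has no error to be set against.

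**Figure D2:**
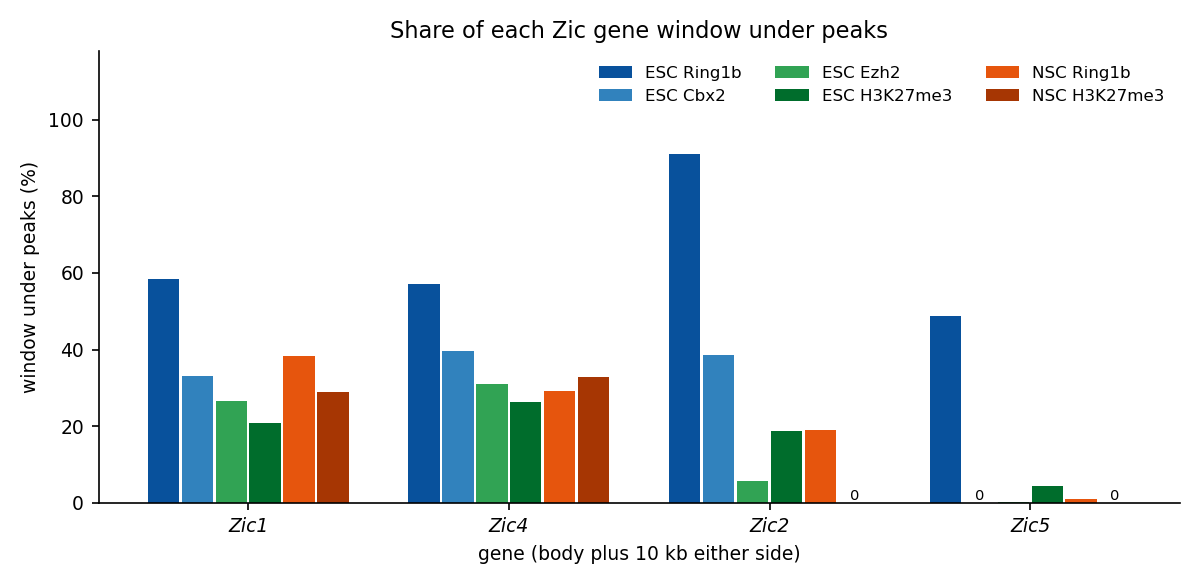
Percent of each gene window (body plus 10 kb either side) under peaks of each of the 6 lists, 1 library a bar, with 0 written where there was no peak. Zic2 reaches 91.0% in ESC Ring1b and 0 in NSC H3K27me3, and Zic1 and Zic4 have all 6 bars between 20.9% and 58.4%.

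Widths can be read against the whole lists. Median widths were 2200 bp for ESC Ring1b, 1400 bp for Cbx2, 1800 bp for Ezh2 and for ESC H3K27me3, 1400 bp for NSC Ring1b and 1600 bp for NSC H3K27me3. At Zic1 and Zic4 the widest peak was among the widest 3.60% of its list for ESC Ring1b, 3.97% for Cbx2 and 2.81% for Ezh2. Their widest ESC H3K27me3 peaks were among the widest 10.0%. In NSCs the widest peaks of this pair were among the widest 5.11% for Ring1b and 3.04% for H3K27me3. At Zic2 and Zic5 the widest ESC Ring1b peak was among the widest 0.471%, while their Ezh2 peak was narrower than the median of its list. The widest peaks of this pair were among the widest 7.94% for Cbx2, 11.5% for ESC H3K27me3 and 12.3% for NSC Ring1b.

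**Figure D3:**
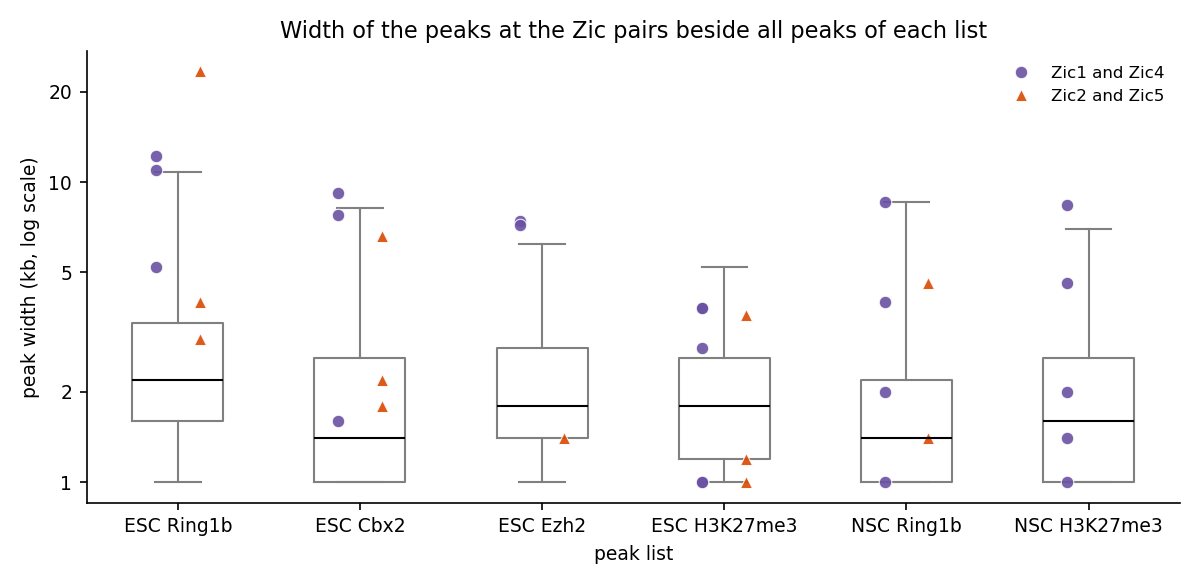
Width in kb (log axis) of each peak in the joined windows of Zic1 and Zic4 (circles) and Zic2 and Zic5 (triangles), beside boxes of all peaks of the list (quartiles and median, whiskers at percentiles 5 and 95). The 23.4 kb ESC Ring1b peak at Zic2 is the widest, and the Ezh2 peak at Zic2 lies below the median of 1800 bp.

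The peaks shared by a divergent pair were set beside all 2301 pairs of protein-coding genes in which the minus-strand gene lies to the left of the plus-strand gene at both ends, with start sites no farther apart than those of Zic2 and Zic5. The bodies may overlap under this definition, as those of Zic1 and Zic4 do from their outermost starts. Zic1 and Zic4 had both start sites inside 1 peak of the ESC Ring1b list, as 3.04% of pairs had. The same held in the Cbx2 list, with 0.391% of pairs, in the Ezh2 list, with 0.782%, and in the NSC Ring1b list, with 0.695%. With the RefSeq start of Zic4 in place of the outermost one, the ESC Ring1b list was the 1 list of these 4 in which it held. It did not hold for H3K27me3, in ESCs (1.17% of pairs) or in NSCs (0.652%), where the start site of Zic1 lay just outside the peak over Zic4. Zic2 and Zic5 had both start sites in 1 peak of no list. In ESCs both were under Ring1b, in separate peaks. The percentages above are over all 2301 pairs, of which 142 had either start site in an ESC Ring1b peak. Among those 142, both start sites were in ESC Ring1b peaks, shared or separate, for 54.2%. By the same measure the share was 52.6% for Cbx2, 43.2% for Ezh2 and 47.2% for NSC Ring1b. It was 37.3% for ESC H3K27me3 and 40.5% for NSC H3K27me3. Having both start sites in peaks was thus common among pairs with a peak at either.

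Ring1b and H3K27me3, the targets measured in both cell types, differed in opposite directions between ESCs and NSCs at Zic1 and Zic4. Ring1b covered 28.4 kb of their joined window in ESCs and 15.6 kb in NSCs, 0.549 times as much. The whole Ring1b list covered 7.90 Mb in ESCs and 3.60 Mb in NSCs, 0.456 times as much, so the ratio at this pair was near that of the list. H3K27me3 covered 12.4 kb in ESCs and 17.4 kb in NSCs, 1.40 times as much, while the whole list went from 4.91 to 3.92 Mb, 0.798 times as much. Of the bases under ESC Ring1b, 52.8% were also under NSC Ring1b, and 96.2% of those under NSC Ring1b had been under it in ESCs. Of the bases under ESC H3K27me3, 85.5% were also under it in NSCs, where a further 6800 bp lay outside the ESC peaks.

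The NSC Ring1b peak over the start sites of Zic1 and Zic4 was 8600 bp wide, at chr9:91254001-91262600, against 11.0 kb in ESCs. In the body of Zic4, NSCs had Ring1b peaks of 4000 and 1000 bp where ESCs had the peak of 12200 bp. H3K27me3 was the wider in NSCs there, with 1 peak of 8400 bp in NSCs at chr9:91271401-91279800 where ESCs had peaks of 3800 and 2800 bp. Over the start site of Zic4 its peak was 4600 bp in NSCs and 3800 bp in ESCs. That NSC peak ended 248 bp short of the start site of Zic1. Beyond the 3′ end of Zic1, both NSC lists had a peak of 2000 bp. In ESCs that side had the wider Ring1b peak of 5200 bp, which overlaps the NSC Ring1b peak, and an H3K27me3 peak of 1000 bp.

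Bases under all 6 lists came to 5800 bp at Zic1 and Zic4, in 3 pieces. The longest, chr9:91256001-91259800, held the start site of Zic4 and lay inside Zic1. The next, chr9:91273001-91274800, was inside Zic4 and held the inner start. Of the 250 bases upstream of that start, 34 were under NSC Ring1b. This is less than the 200 bp grid on which peak edges were placed, so the call depends on the placing of that edge. Bases under both NSC lists at once came to 10400 bp.

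At Zic2 and Zic5, both targets covered less in NSCs than in ESCs. Ring1b covered 28.3 kb in ESCs and 4.67 kb in NSCs, all of it inside the ESC peaks, so 16.5% of the ESC bases were still covered. The NSC bases were 0.165 times the ESC bases, against 0.456 times over the whole list. H3K27me3 covered 5.80 kb in ESCs and 0 in NSCs. The start site of Zic2 lay 14797 bp from the nearest NSC H3K27me3 peak and that of Zic5 24502 bp. Ring1b in NSCs formed a peak of 1400 bp at chr14:122874601-122876000 and a peak of 4600 bp at chr14:122885801-122890400, downstream of Zic2. The first has its upstream edge 3 bp before the start site of Zic2, less than the 200 bp grid on which peak edges were placed, so the call at this start site depends on 1 grid step. At Zic5 the 4000 bp ESC Ring1b peak had no counterpart in NSCs.

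**Figure D4:**
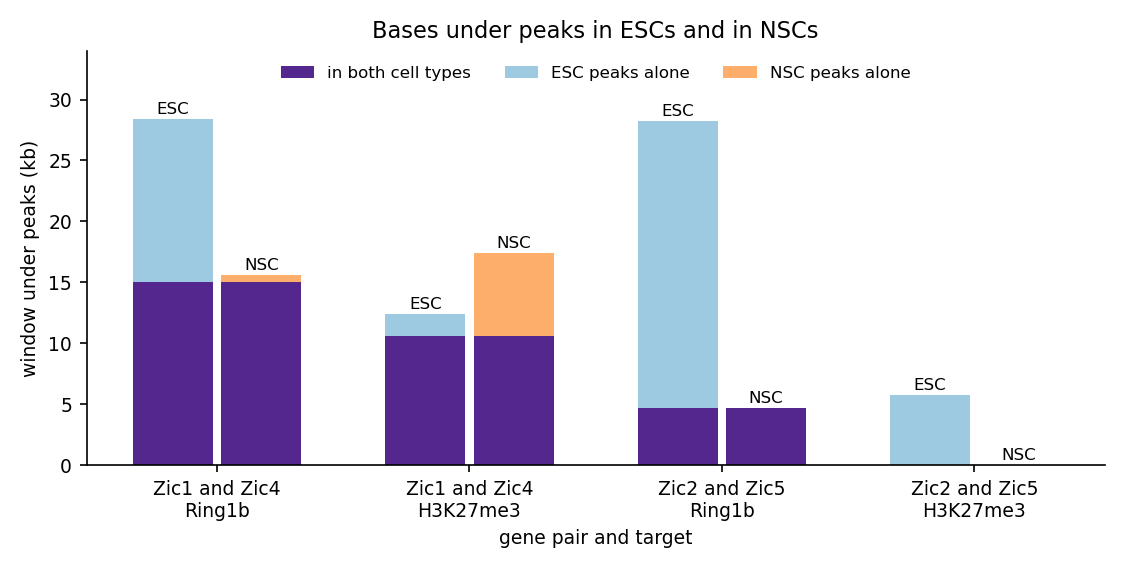
Bases in kb of the joined windows under ESC peaks (left bar of each pair of bars) and NSC peaks (right bar), for Ring1b and H3K27me3, with bases under peaks of both cell types in purple. H3K27me3 covers 12.4 kb in ESCs and 17.4 kb in NSCs at Zic1 and Zic4, and 5.80 kb and 0 at Zic2 and Zic5.

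Gene by gene, the share of bases under ESC Ring1b that were under NSC Ring1b too was 61.7% for Zic1, 49.9% for Zic4, 21.0% for Zic2 and, through the NSC peak at Zic2 alone, 2.12% for Zic5. Among the 2572 gene windows with an ESC Ring1b peak the median was 0, and 80.1% kept none. For H3K27me3 the share was 75.9% for Zic1, 85.5% for Zic4, and 0 for Zic2 and Zic5. Among 2229 windows with an ESC H3K27me3 peak the median was again 0, and 73.4% kept none. These backgrounds were not matched for coverage in ESCs. Windows with a peak had a median share of 4.41% under ESC Ring1b and 4.09% under ESC H3K27me3. The Zic windows had 48.8% or more and 4.50% or more. By start sites, 3 of the 4 genes under ESC Ring1b were under NSC Ring1b as well, where 16.7% of all genes under ESC Ring1b were. Of the same 4, 1 gene, Zic4, was under NSC H3K27me3, where 19.8% of genes under ESC Ring1b were. Zic4 was the 1 gene of the 4 under ESC H3K27me3 and was under it in NSCs too, as were 25.4% of all genes under ESC H3K27me3. The depth and the threshold behind each list are not given in the sources used here, and cannot be told apart from the cell type.

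The transcripts of each gene start at several places, and the lists did not treat them alike. Of 12 annotated starts of Zic4, ESC Ring1b peaks held 9, Cbx2 5, Ezh2 4, ESC H3K27me3 6, NSC Ring1b 3 and NSC H3K27me3 9. The RefSeq start of Zic4, matched to mm9 position 91263810, lies between the outermost and the inner start and was inside ESC Ring1b, ESC H3K27me3 and NSC H3K27me3 peaks and outside those of Cbx2, Ezh2 and NSC Ring1b. All 3 starts of Zic1 were under ESC Ring1b, Cbx2, Ezh2 and NSC Ring1b, and 1 was under H3K27me3 in each cell type. That one, at 91257892, is close to the start of Zic4. All 3 starts of Zic2 were under ESC Ring1b, 2 under NSC Ring1b, 1 under Cbx2, 1 under ESC H3K27me3 and none under Ezh2. Of the 2 starts of Zic5, ESC Ring1b held 1, and the other lists held none.

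CpG islands, defined here as stretches of at least 500 bp with a GC content of at least 50% and an observed-to-expected CpG ratio of at least 0.6 in 200 bp windows, made up 15.6% of the Zic1 and Zic4 window and 18.4% of the Zic2 and Zic5 window. ESC Ring1b covered 99.2% of island bases in the 9 islands of the first and 100% in the 6 islands of the second. Window by window, the share was 98.7% for Zic1, 99.2% for Zic4 and 100% for Zic2 and Zic5. Among 1567 genes with islands and a start site in an ESC Ring1b peak the median was 90.7%, and 44.7% of them had at least 99% covered. NSC Ring1b covered 62.1% and 17.6% of island bases at the pairs, and NSC H3K27me3 68.0% and 0. The widest island, 3180 bp at chr14:122873087-122876266, holds the start site of Zic2. Its 1400 bp under NSC Ring1b were the only island bases of that window with an NSC peak. The island of 2210 bp in the body of Zic5, chr14:122862387-122864596, was under ESC Ring1b and no other list. The NSC Ring1b peaks at Zic2 differed in composition, with a GC content of 66.9% at the start site and 40.2% in the downstream peak.

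Among the Gli and Glis genes, 6 relatives in all, ESC Ring1b held the start sites of 2, Glis1 and Glis3. ESC Ezh2 and ESC H3K27me3 each held 1, that of Glis3. Cbx2 and both NSC lists held none. The median share of their windows under ESC Ring1b was 0.664%, below each of the 4 paired Zic genes. A share depends on the length of the window, and several of these genes are far longer than the Zic genes. In bases, the most covered relative was Glis3 with 3400 bp, a share of 0.771%, while the Zic5 window had 14099 bp. Of the latter, 4000 bp was the peak at the start site of Zic5, and the rest came from peaks at Gm5089 and Zic2.

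Genes of the dorsal neural tube and neural crest, where Zic genes act, were compared by a list of 16 names, of which 15 were in the annotation. ESC Ring1b held 14 of their start sites, Cbx2 4, Ezh2 12 and ESC H3K27me3 12. NSC Ring1b held 4, those of Pax3, Msx1, Foxd3 and Atoh1. NSC H3K27me3 held 9, those of Pax3, Pax7, Msx1, Msx2, Msx3, Foxd3, Wnt3a, Lmx1a and Atoh1. Pax3 and Pax7 are paired-box factors of the dorsal tube, Msx genes respond to BMP signals, Foxd3 is a neural crest factor, and Atoh1 specifies cerebellar granule neurons. The shares depend on the length of each window, which was not matched between this list and the Zic genes. The median share of these windows was 20.9% under ESC Ring1b and 0 under NSC Ring1b, and all 4 Zic genes lay above both. Under NSC Ring1b, Zic5 did so only through 299 bp of the peak at Zic2. Its ESC Ring1b share of 48.8% included peaks at Zic2 and Gm5089, and the peak at its own start site was 4000 bp wide. The median was 5.34% under Cbx2, with Zic5 below it, and 8.16% under Ezh2, with Zic2 and Zic5 below it. It was 11.7% under ESC H3K27me3, with Zic5 below it, and 12% under NSC H3K27me3, with Zic2 and Zic5 below it at 0.

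The genes whose shares over the 6 lists were most like those of each Zic gene were found by the sum of absolute differences in percentage points, leaving out genes in the Zic windows. For Zic1 they were Hoxd3 at 18.2 points, Foxb1 at 21.6 and Tlx1 at 36.6. For Zic4 they were Barhl2 at 26.6, Foxb1 at 27.6 and Pitx1 at 29.3. All of these encode homeodomain or forkhead factors. For Zic2 the nearest were Nr2f2 at 46.2, Commd3 at 48.3 and Bmi1 at 58.8, the last pair being neighbours that share a region, and Bmi1 being a PRC1 subunit. For Zic5 they were Tbx3 at 17.9, Ccr10 at 21.9 and Shmt2 at 22.4. Zic1 and Zic4 were 30.7 points apart, Zic2 and Zic5 119 points, and Zic1 and Zic2 109 points. Zic2 was therefore farther from its closest genes than any of the other 3 was from its own closest.

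The cell types were set beside their markers, which in these data show where PcG peaks lie and not expression. None of the 5 ESC markers (Pou5f1, Nanog, Esrrb, Zfp42, Klf4) had its start site in a peak of any list. Of 3 NSC markers (Nes, Fabp7, Olig2), 2 had it in ESC Ring1b peaks and none in a peak of either NSC list. Of the feeder fibroblast markers Twist1, Col1a1 and Thy1, Twist1 had it in ESC Ring1b, Cbx2 and Ezh2 peaks.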

How the data were processed

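ChIP-seq of Ring1b, Cbx2, Ezh2 and H3K27me3 in ESCs and of Ring1b and H3K27me3 in NSCs was represented by 6 deposited peak lists, 1 library each. Samples were grouped by their labels, and the 4 inputs were not analysed here. By the paper's methods, the authors aligned paired-end tags of 50 bp against mm9 using Bowtie, allowing up to 2 mismatches, whereas the submitters' processing notes name BWA. They compared tag counts in 1 kb windows, moved in steps of 200 bp, with input by a negative binomial distribution, set its size parameter by inspecting the calls, and merged nearby windows. The deposited lists hold peak starts and ends alone, so depth is unknown and no interval or floor is given. The paper also states an added EGS cross-link for Ring1b.

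Peaks were set beside the GENCODE annotation and the mm9 (NCBIM37) genome in Python 3.11.15 with numpy 2.4.6 and matplotlib 3.10.9. A peak was counted where it overlapped a window by at least 1 bp. RefSeq starts came from the GRCm38.p6 table by exact sequence match to mm9, which placed Zic1, Zic4 and Zic5. Backgrounds used all 22350 protein-coding genes. The scripts were tested on simulated intervals, where 200 of 200 planted peaks were found to hold the start site. This checks the overlap arithmetic and not the detection of peaks from reads.

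Named genes were the 4 members, the Gli and Glis genes, a dorsal neural tube and neural crest list (by counts, naming those with an NSC start site), the 3 most alike genes per member, annotated genes in the windows, and cell type markers. Some genes of the lists are not reported here. The members and lists were chosen with earlier results of these data known. Start sites were the outermost annotated ones, and RefSeq starts were an alternative added after the data were seen. Other alternatives were a start site within 1 kb of a peak, the start of any transcript, a minimum peak width of 2 kb, merging of peaks within 3 kb, and windows of 5 or 20 kb either side.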

Additional observations from a re-analysis of the deposited data

How the results depend on the processing

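With 1 library a group, the alternatives show how the values depend on definitions and not on replicate error, and a value was taken to move where it changed by over 1.5-fold. No paired analysis was possible because no group has more than 1 library and no value comes from a test. Of 30 alternative counts of start sites, 23 did not move, but a change from 2 to 3 or from 3 to 2 stayed within that limit. The Cbx2 count went from 2 to 3 with a peak within 1 kb and with the start of any transcript. The Ezh2 count went from 2 to 3 with a peak within 1 kb. The NSC Ring1b count went from 3 to 2 with peaks at least 2 kb wide, which left out Zic2, and with RefSeq starts. The ESC H3K27me3 count of 1 start site became 3 when a peak within 1 kb of the start site or the start of any transcript was accepted, and the NSC H3K27me3 count of 1 became 2 under each of these and with peaks within 3 kb merged. The RefSeq starts of Zic1, Zic4 and Zic5, an alternative chosen after seeing the data, gave 1 start site in place of 2 for Cbx2 and for Ezh2, 0 genes in place of 1 in all 4 ESC lists and in all 6 lists, and 1 list in place of 4 with both start sites of Zic1 and Zic4 in 1 peak. With a peak within 1 kb, 3 genes were in all 4 ESC lists and 2 in all 6 lists, and with the start of any transcript 2 were in each. With peaks within 3 kb merged, Zic2 and Zic5 had both start sites in 1 peak of 1 list in place of 0. Of 48 alternative shares of a joined window under peaks, 44 did not move, and the 4 that did were at Zic2 and Zic5. With peaks at least 2 kb wide, the ESC Ezh2 share went from 3.25% to 0 and the ESC H3K27me3 share from 13.5% to 8.36%. With 5 kb either side the NSC Ring1b share went from 10.9% to 4.23%, and with 20 kb either side the NSC H3K27me3 share went from 0 to 2.22%. Of 48 alternative numbers of peaks, 11 moved, and none of the 8 alternative shares of ESC bases still covered in NSCs did. Depth and threshold per library are unknown, so a missing peak is not shown to be missing binding.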
